A study of Mus musculus with 7 samples.

Results

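The transcription factors described here set or maintain position along the gut: the GATA factors Gata4, Gata5 and Gata6, the CDX homeobox factors Cdx1 and Cdx2, the homeobox factor Pdx1, the cut-domain factor Onecut2, and the nuclear receptors Hnf4a and Hnf4g. These 9 genes were chosen by name, and each was found once among the 46671 genes of the deposited expression table. RNA-seq had been run on mouse epithelium labelled as colorectal, from BALB/C mice of 8 weeks. There were 3 wild-type libraries (Ctrl) and 4 libraries (cKO) of mice in which Stk24, which encodes the kinase MST3, had been knocked out in cells of the intestinal epithelium. The labels name no Cre driver or promoter, and none states how many mice were used per library, so p-values here speak of spread among libraries. Both groups carry a label stating that no drug was given, whereas the design text names the carcinogen AOM and the colitis agent DSS; these statements conflict and nothing in the files settles which holds.

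Values are FPKM, that is fragments scaled by gene length and library size, as deposited, so that levels can be compared between genes. Reads assigned to genes numbered 14659708 to 19659622 per library, and 3 reads on a gene 1 kb long stood at between 0.155 and 0.216 FPKM. Stk24 checked the labels: it stood at 19.4, 19.4 and 21.0 FPKM in Ctrl and at 2.92, 3.04, 3.85 and 3.53 FPKM in cKO, and it fell in cKO, with a log2 difference of -2.42 (SE 0.12, limma adjusted p = 0.00043). Other genes were compared in the same limma fit on log2(FPKM + 0.5), over the 13057 genes whose mean reached 0.5 FPKM. Their p-values were adjusted by Benjamini-Hochberg and called under 0.05. Pdx1, below that level, and the ratios and pairs of factors had exact permutation tests instead.

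As background, the gut tube is divided into stomach, duodenum, jejunum, ileum and colon by combinations of such factors, and several of them stay switched on in adult epithelium. CDX2 holds intestinal against gastric identity along the whole intestine, GATA4 marks duodenum and jejunum and is lost toward the distal ileum and colon, and PDX1 and ONECUT2 are factors of the most proximal intestine. HNF4A and HNF4G act together on enterocyte genes for lipid absorption and the brush border, and GATA6 and CDX1 reach further down the gut than GATA4.

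No difference between the genotypes was called for any of the 9 factors, and all 7 libraries carried a similar combination of them: high Hnf4a, Hnf4g, Cdx2 and Cdx1, intermediate Gata4, Gata6 and Gata5, little Onecut2 and almost no Pdx1. Of the 9 factors, 8 were abundant enough to be tested and 0 passed in limma, against 0.0306% of all genes tested (4 of 13057). At an unadjusted p under 0.05 the count was again 0 of 8, against 8.97% of all genes, and limma voom on the recovered reads also called 0. Adjusted p lay between 0.627 and 0.958. The log2 difference of cKO against Ctrl was below 0 for 5 and above 0 for 3 of the 8, with a median of -0.11 beside -0.0077 over all tested genes. The 95% intervals reached from -0.61 at the lowest to 0.72 at the highest.

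**Figure D1:**
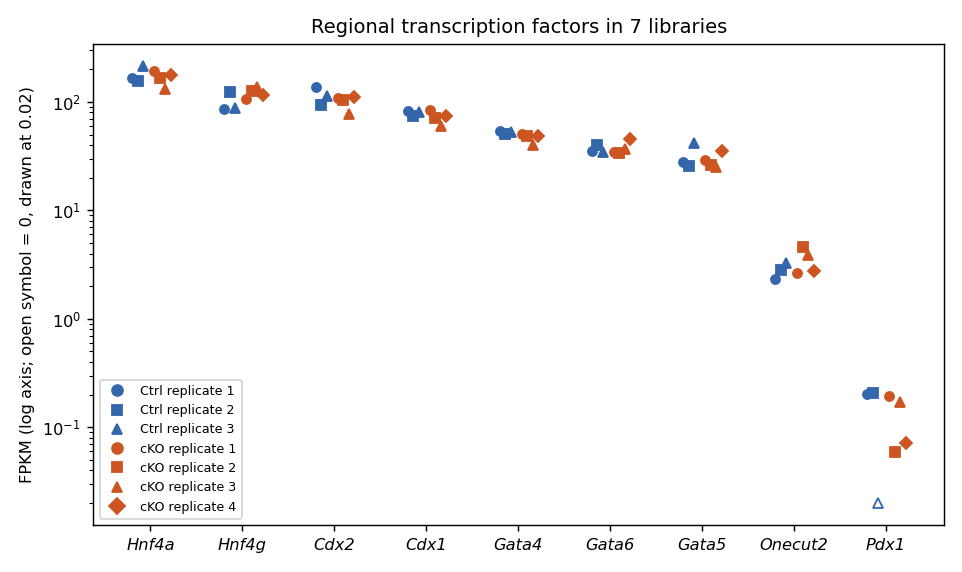
FPKM of the 9 factors (log axis) in each of the 7 libraries, with Ctrl in blue and cKO in orange and the symbol giving the replicate; an open symbol marks a value of 0. Hnf4a stood between 131 and 215 FPKM in all 7 libraries, whereas Pdx1 stayed at or below 0.206 FPKM.

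Gata6, Cdx1 and Onecut2 share chromosome 18, and the other factors lie on chromosomes 2, 3, 5 and 14. Averaged over all 7 libraries, the order of levels was Hnf4a at 172 FPKM, Hnf4g at 112, Cdx2 at 107, Cdx1 at 75.2, Gata4 at 49.0, Gata6 at 37.3, Gata5 at 30.3, Onecut2 at 3.18 and Pdx1 at 0.129 FPKM. Not every step in that order exceeded the spread between libraries. Hnf4a lay above Hnf4g in 6 of 7 libraries, and Hnf4g above Cdx2 in only 4 of 7, so neither of these steps is separated. Cdx2 exceeded Cdx1, and Gata4 exceeded Gata6, in 7 of 7 libraries although their ranges overlapped. Gata6 lay above Gata5 in 6 of 7. The ranges did not touch at these steps: Cdx1 to Gata4, Gata5 to Onecut2, with a 9.52-fold ratio of means, and Onecut2 to Pdx1. Hnf4a ranked above 96.9% of all tested genes, Cdx2 above 94.9%, Gata4 above 89.6% and Onecut2 above 35.7%.

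The GATA factors are zinc-finger proteins that bind the letters GATA, and Gata4, Gata6 and Gata5 were the 3 most abundant of the 7 genes that the deposited annotation assigns the GATA zinc finger, ahead of Mta2 at 25.9 FPKM. In GRCm39 coordinates Gata4 lies on the minus strand of chromosome 14, from 63436363 to 63509161. It stood at 53.8, 50.4 and 52.3 FPKM in Ctrl and at 50.1, 48.1, 39.9 and 48.5 FPKM in cKO. The 4 cKO libraries lay below all 3 Ctrl libraries, with cKO replicate 3 the lowest. Such a separation toward lower values was seen for 4.51% of all tested genes, and for 10.1% when either direction counts. The means were 52.2 ± 1.70 FPKM (SD, n = 3) and 46.7 ± 4.56 FPKM (SD, n = 4). Their log2 difference of -0.16 had a 95% interval from -0.43 to 0.098 (limma adjusted p = 0.690). The exact 2-sided permutation p of FPKM over the 35 splits of 3 and 4 libraries was 0.0571.

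Gata6 is the GATA factor that also acts in crypts and colon. It stood at 35.4, 40.4 and 34.3 FPKM in Ctrl and at 34.4, 34.1, 36.9 and 45.5 FPKM in cKO. Only cKO replicate 4 stood above the Ctrl range, and cKO replicate 2 just below it. The log2 difference was 0.034 (SE 0.13, limma adjusted p = 0.958), and it turned to -0.059 when cKO replicate 4 was left out and to -0.012 without Ctrl replicate 3. The noncoding gene Gata6os overlaps it on the opposite strand and stood at 7.31 to 12.1 FPKM. Gata5, on the minus strand of chromosome 2 from 179966881 to 179977296, is expressed in differentiated villus cells. Gata5 stood at 28.0, 25.7 and 42.1 FPKM in Ctrl and at 29.3, 26.3, 25.2 and 35.2 FPKM in cKO. A single library of each group was high, Ctrl replicate 3 and cKO replicate 4, and the groups overlapped. Its log2 difference of -0.12 (SE 0.19, limma adjusted p = 0.890) turned to 0.096 without Ctrl replicate 3.

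Gata4 made up 43.3% ± 2.63 (SD, n = 3) of the summed FPKM of the GATA trio in Ctrl and 41.3% ± 3.44 (SD, n = 4) in cKO. The ratio of Gata4 to Gata6 was 1.52, 1.25 and 1.52 in Ctrl and 1.45, 1.41, 1.08 and 1.06 in cKO. The low values were those of cKO replicates 3 and 4, and the groups overlapped (exact 2-sided permutation p = 0.286, adjusted p = 0.857 over 6 ratios). Among the relatives, Gata3, which marks lymphoid and other non-enterocyte cells, stood at 0.0434 to 0.331 FPKM, Gata2 at up to 0.171 and Gata1 at up to 0.0990 FPKM, all below the level for testing. Zfpm1, which encodes the GATA cofactor FOG1, stood at 32.3 ± 2.94 and 27.5 ± 1.97 FPKM (SD, n = 3 and 4), a log2 difference of -0.22 (SE 0.11, limma adjusted p = 0.590). Its relative Zfpm2 gave 1 read in all libraries together.

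Cdx2 and Cdx1 were the most abundant and the next most abundant of the 187 genes annotated with a homeobox domain, of which 115 were at 0 in every library. The homeobox gene that followed was Isx, an intestinal factor controlled by vitamin A, at 63.3 FPKM. Cdx2 lies on the minus strand of chromosome 5, from 147237710 to 147244059. It stood at 137, 93.6 and 113 FPKM in Ctrl and at 109, 105, 77.0 and 112 FPKM in cKO. The highest value was that of Ctrl replicate 1 and the lowest that of cKO replicate 3, with the other libraries between. The means were 115 ± 21.7 and 101 ± 16.0 FPKM (SD, n = 3 and 4), and the log2 difference was -0.18 (SE 0.18, limma adjusted p = 0.784). Cdx1, a factor of crypt and lower villus, stood at 83.3, 74.8 and 80.1 FPKM in Ctrl and at 84.0, 70.5, 60.0 and 73.5 FPKM in cKO. Replicate 1 of cKO lay just above the Ctrl range and the other 3 cKO libraries below it. The log2 difference was -0.15 (SE 0.14, limma adjusted p = 0.761). Cdx1 made up 41.2% ± 3.30 of the summed FPKM of both CDX genes in Ctrl and 41.8% ± 2.18 in cKO (SD, n = 3 and 4), and their ratio gave an exact 2-sided permutation p of 0.771. Cdx4, the remaining CDX gene, was at 0 in all 7 libraries.

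Pdx1 and Cdx2 are neighbours in the ParaHox cluster, an ancient group of homeobox genes that also holds Gsx1. Pdx1 lies on the plus strand, from 147206907 to 147212658, and 25051 bases separate it from Cdx2 in the deposited coordinates. The mean level of Cdx2 was 823 times that of Pdx1, and Gsx1 was at 0 in every library. The 250 bases before the annotated start of each gene are shown because one of these neighbours was abundant and the other near 0. They are RefSeq promoter windows, which matched 4 of the 9 factors by symbol, of GRCm38.p6, a build other than that of the expression table, at chr5:147269847-147270096 on the plus strand for Pdx1 and chr5:147307250-147307499 on the minus strand for Cdx2, written 5′ to 3′ with each CG pair in capitals.
Pdx1: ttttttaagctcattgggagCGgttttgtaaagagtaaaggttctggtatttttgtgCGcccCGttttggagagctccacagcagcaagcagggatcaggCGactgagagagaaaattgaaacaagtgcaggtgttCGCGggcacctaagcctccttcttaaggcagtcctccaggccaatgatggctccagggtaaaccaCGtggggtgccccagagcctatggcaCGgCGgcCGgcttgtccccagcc
Cdx2: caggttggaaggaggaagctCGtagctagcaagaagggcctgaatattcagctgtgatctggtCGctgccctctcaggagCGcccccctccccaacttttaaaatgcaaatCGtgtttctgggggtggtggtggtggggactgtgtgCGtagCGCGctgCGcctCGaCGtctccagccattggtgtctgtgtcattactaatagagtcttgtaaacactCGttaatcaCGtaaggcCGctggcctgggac
The Pdx1 window held 10 CG pairs and the Cdx2 window 13, where the median of 32851 such windows was 6. Both windows thus had CG counts above the median. Motifs were searched on both strands of every window: AGATAA for GATA factors, CNATAAA for CDX factors, CAAAGTC for HNF4, ATTGAT for ONECUT factors and TATAAA for the TATA box. Neither the Pdx1 nor the Cdx2 window held any of these letters, and the Gata5 window, with 22 CG pairs, held none either.

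Pdx1 stood at 0.204, 0.206 and 0 FPKM in Ctrl and at 0.195, 0.0587, 0.170 and 0.0711 FPKM in cKO. These values rest on 0 to 8 reads per library, near or below the 3 reads taken as the floor in several of them, and the groups overlapped (exact 2-sided permutation p = 0.886). Pdx1 was not tested in limma, and a difference between the groups was not detectable at this depth. Plut, a long noncoding RNA that overlaps Pdx1 on the opposite strand, stood at 0.900 to 4.29 FPKM, above Pdx1 itself. The strand setting of the counting is not given in the sources used here, so reads of Plut and Pdx1 cannot be told apart where they overlap. Pdx1 is also the defining factor of pancreas, and 9 of 13 pancreatic markers were at 0 in all libraries, Ptf1a, Ins1 and Ins2 among them. The most abundant of the other pancreatic markers were Gcg at 11.5 to 29.3 FPKM, which intestinal L cells also make, Cela1 at 4.08 to 10.3 FPKM and Iapp, which is also an enteroendocrine product, at 0.257 to 0.888 FPKM in Ctrl and 1.09 to 1.45 FPKM in cKO (limma adjusted p = 0.511, 74 reads in all). The Iapp groups did not overlap, as for 5.62% of all tested genes in that direction.

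HNF4 receptors bind DNA as dimers and are held active in most enterocytes. Hnf4a lies on chromosome 2 from 163348731 to 163414827 on the plus strand, and is known to start from an upstream (P2) and a downstream (P1) promoter whose products differ in their first exon. The RefSeq table of GRCm38.p6 holds a pair of start windows for it, 40298 bases apart, at chr2:163506607-163506856 and chr2:163546905-163547154, both on the plus strand. They are shown because the FPKM of Hnf4a counts transcripts of both starts as 1 value. Each gives the 250 bases before the start, 5′ to 3′, with motif matches in capitals.
Hnf4a upstream start: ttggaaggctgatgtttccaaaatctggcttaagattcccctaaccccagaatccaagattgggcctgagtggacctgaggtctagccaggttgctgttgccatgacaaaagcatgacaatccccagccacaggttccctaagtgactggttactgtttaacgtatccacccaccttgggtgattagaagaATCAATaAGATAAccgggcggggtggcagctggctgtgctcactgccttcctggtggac
Hnf4a downstream start: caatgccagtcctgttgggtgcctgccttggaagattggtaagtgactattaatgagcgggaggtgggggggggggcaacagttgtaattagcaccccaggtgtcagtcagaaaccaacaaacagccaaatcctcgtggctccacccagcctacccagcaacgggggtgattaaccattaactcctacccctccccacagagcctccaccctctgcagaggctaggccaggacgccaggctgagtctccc
The upstream window held AGATAA, beginning 52 bases before the start, and ATCAAT, which is the ONECUT letters on the minus strand, beginning 59 bases before it. The downstream window held none of the searched letters. AGATAA was present in 9.99% and ATTGAT in 6.72% of all 32851 windows, so these are common letters, and a match describes the sequence only.

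Hnf4a stood at 167, 155 and 215 FPKM in Ctrl and at 191, 166, 131 and 177 FPKM in cKO. Ctrl replicate 3 was the highest and cKO replicate 3 the lowest of all libraries, and the other 5 lay between. The means were 179 ± 32.0 and 166 ± 25.5 FPKM (SD, n = 3 and 4). The log2 difference was -0.10 (SE 0.18, limma adjusted p = 0.894), and it changed sign under quantile normalization, to 0.026, without Ctrl replicate 3, to 0.037, and without cKO replicate 3, to 0.0057. Hnf4aos, a noncoding RNA on the opposite strand of Hnf4a, stood at 1.77 to 4.66 FPKM, under the lowest Hnf4a value, and its reads cannot be told from those of Hnf4a where they overlap.

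Hnf4g, the intestinal paralog, lies on chromosome 3 from 3573090 to 3724860 on the plus strand. It stood at 86.3, 124 and 88.0 FPKM in Ctrl and at 106, 125, 138 and 116 FPKM in cKO. Ctrl replicates 1 and 3 lay below every cKO library, while Ctrl replicate 2 stood within the cKO range. The means were 99.3 ± 21.1 and 121 ± 13.5 FPKM (SD, n = 3 and 4). With a log2 difference of 0.30, Hnf4g had the difference farthest from 0 of the 8 tested factors and the smallest p, but its 95% interval from -0.082 to 0.68 includes 0 (limma adjusted p = 0.627). Leaving out each library in turn gave 0.21 to 0.47. Hnf4g made up 34.1%, 44.4% and 29.0% of the summed FPKM of the HNF4 pair in Ctrl and 35.7%, 43.1%, 51.2% and 39.6% in cKO. It exceeded Hnf4a in 1 library, cKO replicate 3. The summed level of the pair was 278 ± 25.1 FPKM in Ctrl and 287 ± 12.7 FPKM in cKO (SD, n = 3 and 4). The log2 ratio of Hnf4g to Hnf4a differed by 0.40 between the groups, which overlapped (exact 2-sided permutation p = 0.257, adjusted p = 0.857 over 6 ratios). The difference was 0.19 without Ctrl replicate 3, 0.23 without cKO replicate 3 and 0.67 without Ctrl replicate 2. For the other ratios tested, Gata5 to Gata4, Gata4 to Cdx2 and Pdx1 to Cdx2 included, the exact permutation p lay between 0.543 and 0.971.

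Onecut2, a cut-domain factor of proximal gut, liver and pancreas, stood at 2.32, 2.79 and 3.30 FPKM in Ctrl and at 2.64, 4.61, 3.86 and 2.74 FPKM in cKO. The values above the Ctrl range were those of cKO replicates 2 and 3. The means were 2.80 ± 0.493 and 3.46 ± 0.945 FPKM (SD, n = 3 and 4), with a log2 difference of 0.24 (SE 0.21, limma adjusted p = 0.746). With 530 to 1081 reads per library, counting error was small beside the spread between libraries. Its paralogs were lower still, Onecut1 at 0 in every library and Onecut3 at up to 0.120 FPKM. Of the 10 relatives listed for these families, 3 could be tested, Zfpm1 among them, all 3 were lower in cKO and 0 passed at either p.

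**Figure D2:**
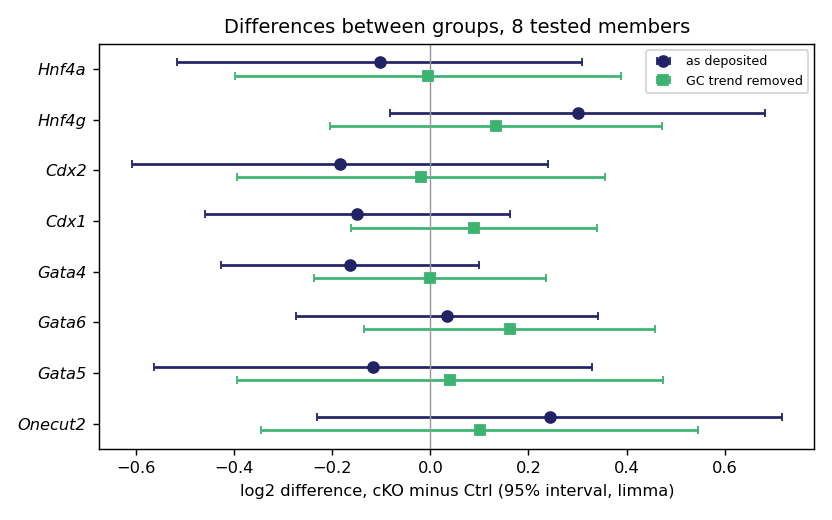
Log2 difference of cKO against Ctrl for the 8 tested factors, as deposited (dark circles) and after removing each library's trend with GC content (green squares), with 95% limma intervals. Every interval crosses 0, and that of Hnf4g as deposited runs from -0.082 to 0.68.

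The combination of factors was set beside region markers to check the colorectal label. Jejunal genes were the most abundant: Apoa1, a lipoprotein component, at 7254 to 14465 FPKM, Fabp1, a fatty acid carrier, at 819 to 2815 FPKM, and Lct, the lactase gene, at 280 to 523 FPKM. The large-bowel markers Hoxd13 and Scnn1g were at 0 in all 7 libraries, Car1 gave 2 reads in all, and Hoxb13 did not pass the level for testing. Car4 and Cyp2c55 were the most abundant genes of the colon list, at 85.8 to 141 and 5.63 to 19.1 FPKM. Stomach markers stayed at or below 0.861 FPKM, that of Pgc. Of the ileal genes, Fabp6, the ileal bile acid carrier, stood at only 0.234 to 4.19 FPKM, whereas Guca2a, Clec2h and Mep1b stood between 357 and 796 FPKM. Among duodenal genes Trpv6 was at 0 and Tff2 at or below 0.252 FPKM, while the hormone gene Gip stood at 46.4 to 115 FPKM. Among the 12 colon genes found, 2 were at 0 in all libraries and 4 reached the level for testing. Lactase, apolipoprotein genes and Gata4, with Hoxd13, Scnn1g and Car1 at or near 0, are a small-intestinal combination. That combination goes against the label in both groups, whereas Car4 was abundant in both.

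**Figure D3:**
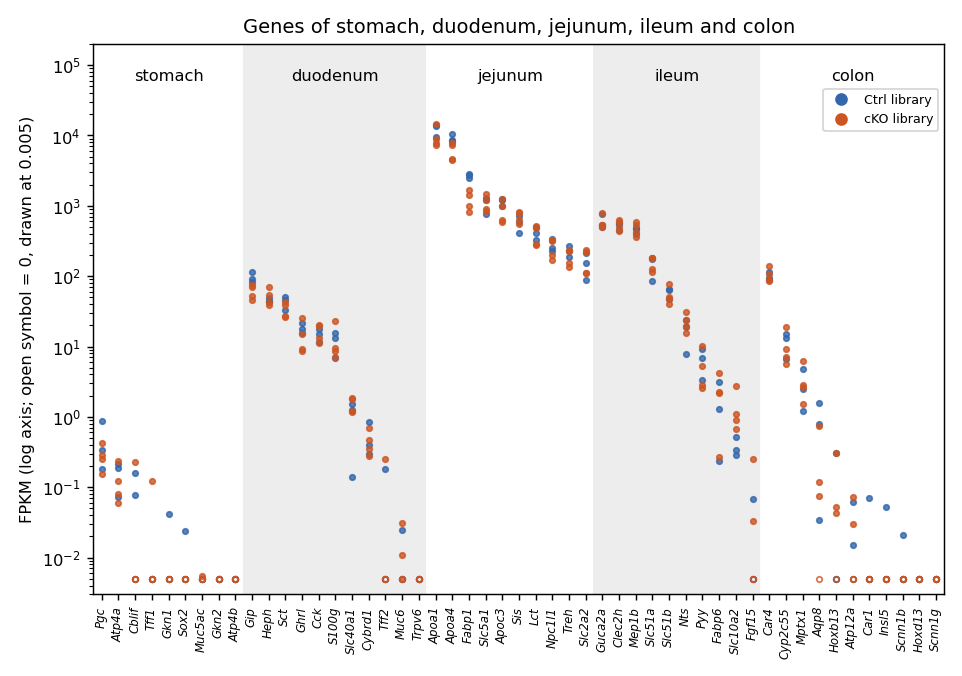
FPKM (log axis) of genes from the lists for stomach, duodenum, jejunum, ileum and colon in the 3 Ctrl (blue) and 4 cKO (orange) libraries, with open symbols for 0. Jejunal genes lie highest, with Apoa1 at 7254 FPKM or more, while Hoxd13 and Scnn1g of the colon list are at 0 throughout.

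No gene of the region lists passed in limma, which called 0.0306% of all genes. An unadjusted limma p under 0.05 was found for 1 of 7 duodenal, 1 of 10 jejunal, 1 of 9 ileal and 1 of 4 tested colon genes. The share over all tested genes was 8.97%. In the jejunal list 7 of 10 tested genes were lower and 3 higher in cKO, and the median log2 difference was -0.22. It was -0.074 without Ctrl replicate 2, -0.085 and -0.10 without cKO replicates 2 and 1, and -0.34 without cKO replicate 4. Rescaled to a common sum (TPM) it was -0.13, and under quantile normalization it was -0.096. In the ileal list 3 of 9 were lower and 6 higher, with a median of 0.049. That median was below 0 without Ctrl replicate 3 (-0.042), cKO replicate 3 (-0.010) or cKO replicate 4 (-0.015), and was 0.18 without cKO replicate 2 and 0.10 without Ctrl replicate 1. In the duodenal list 4 of 7 were lower, with a median of -0.063 that became 0.021 when FPKM were rescaled to a common sum (TPM), 0.040 without Ctrl replicate 1 and 0.11 without Ctrl replicate 2. In the colon list 1 of 4 was lower, with a median of 0.14. The median over all tested genes was -0.0077. Fabp1, a gene with known GATA4 and HNF4 input, was the list member with the smallest p. It stood at 2815, 2709 and 2500 FPKM in Ctrl and at 1407, 990, 819 and 1658 FPKM in cKO, so that the groups lay apart, with a log2 difference of -1.19 (SE 0.29, limma adjusted p = 0.473). Apoa4, the other jejunal gene with groups that did not overlap, stood at 8456 to 10415 FPKM in Ctrl and 4553 to 7710 FPKM in cKO (log2 difference -0.65, limma adjusted p = 0.623). Slc10a2, the ileal bile acid uptake carrier that GATA4 is known to hold down in jejunum, stood at 0.340, 0.524 and 0.287 FPKM in Ctrl and at 1.10, 0.682, 0.893 and 2.72 FPKM in cKO. All 4 cKO libraries were above Ctrl at a low level, with a log2 difference of 0.96 (SE 0.35, limma adjusted p = 0.522). Gip stood at 81.6 to 115 FPKM in Ctrl and 46.4 to 74.9 FPKM in cKO (log2 difference -0.65, limma adjusted p = 0.511). Groups that did not overlap were seen for 2 of 10 tested jejunal, 1 of 9 ileal, 1 of 7 duodenal and 1 of 4 colon genes. Over all tested genes the share was 10.1%, with 4.51% lower and 5.62% higher in cKO.

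The genes known to take input from these factors were described in the same way. Of 19 tested genes with HNF4 input, 0 passed and 1 had an unadjusted limma p under 0.05, against 8.97% of all tested genes. In cKO 16 were lower and 3 higher, and the median log2 difference was -0.12. Leaving out single libraries took that median from -0.26 (without cKO replicate 4) to -0.018 (without cKO replicate 2). The same median was -0.036 as TPM and -0.071 under quantile normalization. Fabp1 and Apoa4 are in this list too, as are Apoa1, Apoc3 and Npc1l1 of the jejunal list. Ush1c, a scaffold of the brush border, stood at 67.9 ± 4.26 and 57.3 ± 7.54 FPKM (SD, n = 3 and 4, limma adjusted p = 0.611). Of 12 tested genes with CDX2 input, 0 passed at either p, 8 were lower and 4 higher, and the median was -0.11, which changed to 0.037 under quantile normalization and to 0.032 without Ctrl replicate 2, and was -0.19 without cKO replicate 4. Krt20, the keratin of mature enterocytes, was the most abundant of them at 738 to 1569 FPKM. Isx and Furin, a protease gene, had the smallest p in that list, with log2 differences of -0.21 and -0.17 (limma adjusted p = 0.672 and 0.713). Beside these lists, 51.3% of all tested genes were lower in cKO. That share ran from 19.2% to 83.0% between bins of low and high transcript GC, described below. The lists were not matched to all genes by GC. Summed immune markers, led by the T cell genes Cd3e at 10.5 to 43.2 FPKM and Cd8a at 10.5 to 35.1 FPKM, came to 63.1 to 129 FPKM over the Ctrl and 44.4 to 117 FPKM over the cKO libraries, and summed markers of fibroblasts and muscle to 5.86 to 13.7 and 6.42 to 14.2 FPKM, mostly Vim. Markers of endothelium, nerve and liver summed to 1.37 FPKM at most. Whether such cells bear on the lists was not tested. Of 8 general epithelial genes, with Krt8 at 1837 to 2673 FPKM the most abundant, 5 were lower and 3 higher and 0 passed at either p. In bulk RNA, fewer cells of a type and less RNA per cell cannot be told apart.

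Other transcription factors tied to position or endoderm were also without a called difference. Of 17 tested genes in that list, 3 had an unadjusted limma p under 0.05, against 8.97% of all tested genes. In cKO 9 were lower and 8 higher, and the median was -0.0021. Rfx6, a factor of enteroendocrine cells and foregut, stood at 0.376, 0.515 and 0.434 FPKM in Ctrl and at 0.730, 0.753, 0.874 and 0.951 FPKM in cKO. Every cKO library thus lay above every Ctrl library at a low level, a pattern that 5.62% of all tested genes showed in that direction (log2 difference 0.49, SE 0.18, limma adjusted p = 0.524). Of 7 tested enteroendocrine markers, 4 were lower and 3 higher, 0 passed at either p, and Chga stood at 20.1 to 41.9 FPKM. The most abundant of these other factors was Creb3l3, a regulator of lipid genes, at 177 to 332 FPKM.

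The factors also varied between libraries of the same group. In cKO replicate 3 Gata4, Gata5, Cdx1, Cdx2 and Hnf4a had their lowest value of all 7 libraries, and Hnf4g its highest. Pearson r of log2(FPKM + 0.5) over the 7 libraries was computed for all 28 pairs of the 8 tested factors. Both groups enter r, rho and their p-values, so differences between the groups contribute to them. As deviations from group means, r was 0.92 for Gata4 and Cdx1 and 0.81 for Gata5 and Hnf4a. For Hnf4g it was -0.84 with Cdx2, -0.66 with Gata4 and -0.76 with Cdx1. None of the 28 passed after Benjamini-Hochberg adjustment of exact permutation p-values, the smallest adjusted p being 0.0861. The closest pair was Gata4 and Cdx1, with r = 0.93 and Spearman rho = 0.79 (exact permutation p = 0.00615 and 0.0480), which dropped to r = 0.68 without the 2 libraries farthest from the median of Gata4. Gata5 and Hnf4a gave r = 0.82 and rho = 0.96 (exact permutation p = 0.0185 and 0.00278), and r = 0.89 without the 2 farthest libraries. Hnf4g ran opposite to Cdx2 (r = -0.85, rho = -0.93, exact permutation p = 0.0103 and 0.00675), and without the 2 farthest libraries r was -0.65. It also ran opposite to Gata4 (r = -0.80, rho = -0.89, exact permutation p = 0.00734 and 0.0123). With Cdx1 it gave r = -0.82 and rho = -0.86 (exact permutation p = 0.0161 and 0.0238). Without the 2 farthest libraries r was -0.80 for Gata4 and -0.94 for Cdx1. Gata4 and Cdx2 had r = 0.87 and rho = 0.75 (exact permutation p = 0.0165 and 0.0663), but r = 0.072 without the 2 farthest. As deviations from group means their r was 0.87. Leaving out extreme libraries narrows the range of Gata4, so the lower r alone cannot say whether the relation rests on them.

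By the same measure the genes whose pattern was most like each factor, among 10447 named genes averaging 1 FPKM or more, had r between 0.951 and 0.989 over the 7 libraries. They were Lage3, Nop10 and Pebp1 for Gata4, Fzd4 and Gadd45g for Gata5, Sucla2, Abhd5 and Ptpmt1 for Gata6, Snrpa1, Ppp1r14b and Lsm6 for Cdx1, and Wbp11, Trim14 and Cebpa for Cdx2. For the others they were Kmt2a, Vps13d and Ankle2 for Onecut2, Nars, Tacc2 and Rabl6 for Hnf4a, and Atxn7, Cdc37l1 and Sgk3 for Hnf4g. None of the 8 factors was among the 3 genes closest to another of them. The values are the highest of 10447 over 7 points and are a description without a test.

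The differences of the factors ran with the GC content of their transcripts, and so did those of all tested genes. Over 12211 tested genes with a GC value, which was taken from the longest GENCODE M21 transcript, the median log2 difference went from 0.18 in the lowest of 5 equal bins of GC through 0.072, -0.0025 and -0.088 to -0.18 in the highest. In the lowest bin 19.2% of genes were lower in cKO, and in the highest 83.0%. Hnf4g and Onecut2, with 41.5% and 42.6% GC, lie in the lowest bin and had differences of 0.30 and 0.24. Gata5, Gata4, Cdx2 and Cdx1, with 56.9% to 62.1%, lie in the highest bin and had differences of -0.12 to -0.18. Hnf4a at 53.7% and Gata6 at 55.3% fall in the bin below the highest, with -0.10 and 0.034. Each factor differed by no more than its SE from the median of its bin. That is a weak criterion, since SEs were 0.11 to 0.21. Whether GC accounts for the differences of the factors was not tested.

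**Figure D4:**
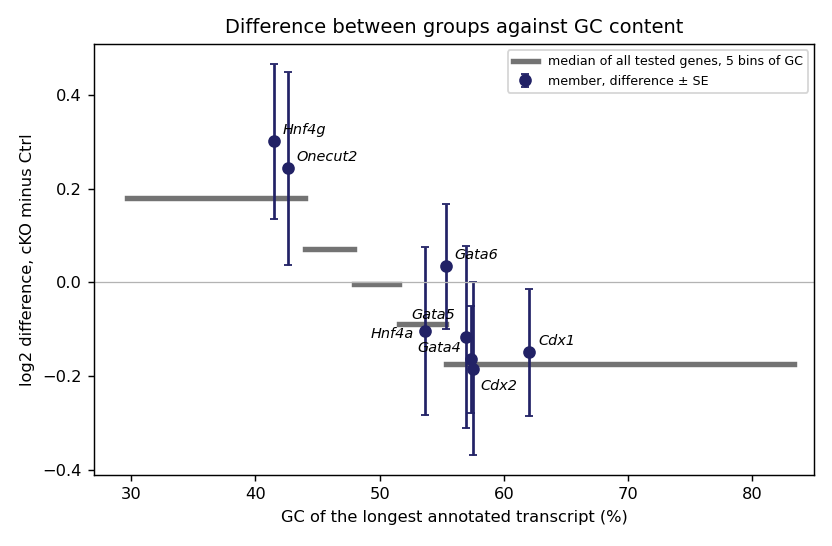
Log2 difference of cKO against Ctrl for the 8 tested factors (points, ± SE) against the GC content of the longest transcript, with grey bars for the median of all tested genes in each of 5 bins of GC. The bars step down from 0.18 to -0.18, and Hnf4g and Onecut2 lie at the low-GC end while Cdx1 lies at the high-GC end.

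The trend with GC differed between libraries. The median deviation of the lowest bin minus that of the highest was -0.31, -0.14 and -0.16 in Ctrl and 0.039, 0.20, 0.28 and 0.11 in cKO. The groups did not overlap, so genotype and GC trend cannot be told apart. A trend with gene length ran beside it, with 0.24, 0.11 and 0.097 for the bin of shortest minus that of longest genes in Ctrl and -0.027, -0.18, -0.15 and -0.058 in cKO. With only the length trend removed, also chosen after seeing the data, log2 differences were 0.27 for Hnf4g, 0.12 for Onecut2 and -0.14 for Hnf4a. They were 0.039 for Gata6, -0.11 for Gata5, -0.17 for Gata4, -0.12 for Cdx2 and -0.060 for Cdx1. After each library's GC trend was removed, an alternative chosen after seeing the data, the log2 differences were 0.13 for Hnf4g, 0.10 for Onecut2, -0.0055 for Hnf4a, 0.16 for Gata6, 0.039 for Gata5, -0.00048 for Gata4, -0.019 for Cdx2 and 0.089 for Cdx1. The Gata4 values of the groups then overlapped, and the medians of the jejunal and HNF4 lists were -0.12 and -0.044. Among pairs, Gata5 and Hnf4a then had the smallest p, with r = 0.79 (exact permutation p = 0.0357). Gata4 and Cdx1 had r = 0.75 and Cdx2 and Hnf4g r = -0.73 (exact permutation p = 0.0496 and 0.0619). Hnf4g had r = -0.40 with Gata4 and -0.38 with Cdx1. The smallest adjusted p of the 28 was 0.278. Removing the trend also removes any genotype difference that runs with GC.

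**Figure D5:**
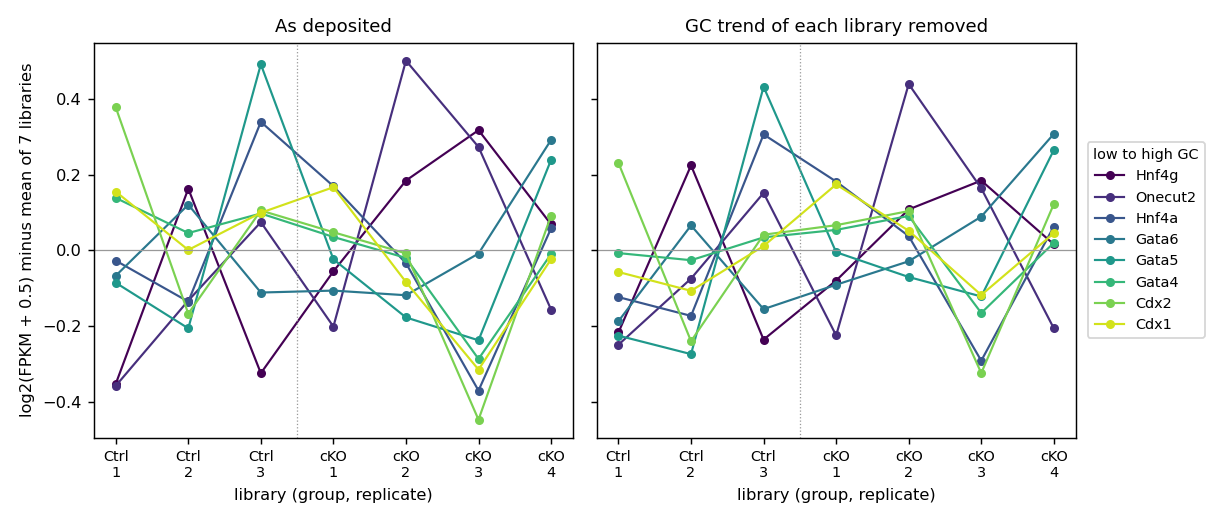
Deviation of each tested factor from its own mean over 7 libraries on the log2(FPKM + 0.5) scale, as deposited (left) and after removing each library's GC trend (right), coloured from low to high transcript GC. On the left Hnf4g lies at its highest and Gata4, Gata5, Cdx1, Cdx2 and Hnf4a at their lowest in cKO replicate 3; on the right Gata4, Cdx1, Cdx2 and Hnf4a have their lowest value there.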

How the data were processed

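The labels describe Trizol extraction and total RNA. HISAT2 is the aligner per the submitters' processing notes. Its version, the counting tool, strand setting and annotation were not given in the sources used here. Per gene and library the authors deposited 1 FPKM value, and its chromosome identifiers belong to GRCm39. Multiplied by gene length, 100% of values came out as whole reads (within 0.01), so reads per gene are known. The library sizes the authors had divided by were 0.891 to 1.10 times the read totals.

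Groups were compared with limma (version 3.58.1, R 4.3.3; lmFit and eBayes with trend, 2-sided, no covariate) on log2(FPKM + 0.5), which understates changes of low genes. Single values had an exact permutation test. The fit was also run on simulated counts. Their set folds were larger than the differences of the factors, and they carried no GC or length trend. The simulation therefore does not bear on differences as small as those of the factors. The 9 factors and the 15 gene lists were chosen with earlier results of these data known. Named were all factors, in each list the 2 genes with the smallest p and the most abundant, or for tissue checks the 3 most abundant and defining markers at 0, the 3 genes most like each factor, genes overlapping a factor, and Stk24; any other gene was picked with its values in view, and a few listed genes are not reported here by name, though list counts and medians include them. Alternatives were pseudocounts of 0.1 and 1, other filters, scalings and variance models, voom (at least 10 reads in 3 libraries), the replicate number as a block, leaving out each library, and, chosen after seeing the data, removing each library's lowess trend with transcript GC or gene length. Replicate numbers did not pair the libraries.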

Additional observations from a re-analysis of the deposited data

How the results depend on the processing

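None of the 8 tested factors passed in limma under any alternative, the smallest adjusted p being 0.503 (Hnf4g, quantile normalization). Gata4, Cdx2, Onecut2 and Hnf4g did not change sign in any alternative run, but their sizes moved. Leaving out each library gave -0.20 to -0.092 for Gata4, -0.32 to -0.048 for Cdx2, 0.11 to 0.35 for Onecut2 and 0.21 to 0.47 for Hnf4g, and Gata4 was -0.00048 with the GC trend removed. The others reversed in the following settings, and the cause was not tested unless stated. Gata5 went to 0.039 with the GC trend removed and Cdx1 to 0.089. Hnf4a went to 0.026 under quantile normalization. Pdx1, at -0.018, went to 0.036 with a pseudocount of 0.1 and 0.0016 as TPM. Leaving out each library in turn gave -0.25 to 0.096 for Gata5, -0.059 to 0.10 for Gata6, -0.20 to 0.037 for Hnf4a and -0.18 to 0.066 for Pdx1. Log2 ratios went from -0.065 to 0.26 for Gata5 to Gata4, -0.066 to 0.13 for Cdx1 to Cdx2 and -0.094 to 0.13 for Gata4 to Cdx2. The duodenal median went from -0.25 to 0.11. Quantile normalization let 1 of the 28 pairs pass (adjusted exact permutation p = 0.0444), against 0. Rescaling moved the median of all genes by at most 0.077.

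The count of all genes called, 4, went to 1 with a pseudocount of 0.1, 1 with no filter, 1 at a mean of at least 1 FPKM, 2 with the GC trend removed, 1 with the length trend removed, and 1 to 7 leaving out each library.

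With the replicate number as a block, 0 genes passed in limma (1052 at an unadjusted p under 0.05), and Gata6 went to -0.059, the value without cKO replicate 4, which has no partner. Same-numbered libraries had correlations of deviations of 0.12, -0.087 and -0.13, so the numbers do not pair them. The block gave -0.18 for Gata4, -0.24 for Cdx2 and 0.32 for Hnf4g, and changed no call among the factors.

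Depth limits Pdx1, which rests on 0 to 8 reads. The number of libraries limits the rest: SEs of log2 differences were 0.11 to 0.21. Bulk values cannot place the factors in cells, and the FPKM cannot separate transcripts of the Hnf4a starts.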
